A study of Homo sapiens with 6 samples.

Results

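The RIG-I-like receptors and their adaptor are 4 genes of the 29845 in the deposited count table. They are DDX58, which encodes RIG-I, IFIH1, which encodes MDA5, DHX58, which encodes LGP2, and MAVS. The genes were chosen by name, and all 4 had 1 row each and passed the filter on low counts, as did 16555 genes in all. RNA-seq was performed on A549 cells, an established human lung epithelial cancer line, in 3 control libraries (Ctrl) from cells transfected with the empty pIRES-hrGFP-1a vector and 3 libraries (TFAM-OE) from cells transfected with the same vector carrying human TFAM with a FLAG tag. Both groups therefore went through lipid transfection and carry a plasmid with a fluorescent protein gene, and no library of untransfected cells was analysed here. Transfection was transient, so a library mixes cells that took up plasmid with cells that did not.

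RIG-I, MDA5 and LGP2 are cytosolic helicases that bind double-stranded RNA. RIG-I prefers short RNA with a triphosphate end, and MDA5 forms filaments along longer duplexes. Both carry caspase recruitment domains (CARDs) with which they engage the CARD of MAVS, a protein anchored in the mitochondrial outer membrane, while LGP2 has no CARD and modulates the other receptors. MAVS then activates the kinases TBK1 and IKKε and the factors IRF3, IRF7 and NF-κB, and these induce type I and type III interferons. The receptor genes are themselves induced by interferon in many cell types, including epithelial cells. MDA5 can also detect double-stranded RNA that leaves mitochondria, the organelle whose genome TFAM packages.

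The promoters of the members are shown because the receptor genes moved together in these libraries and MAVS did not move with them. Sequences are RefSeq's for GRCh38.p14, taken from 250 bases before to 50 bases after each annotated start of transcription, and 3 of the 4 members matched an entry (RIGI for DDX58, IFIH1 and MAVS). Below, each is given up to the outermost annotated base of the gene, and that of IFIH1 up to the first base of its neighbour GCA. Capitals mark the matches described after the sequences.
DDX58, chr9:32526209-32526446, minus strand: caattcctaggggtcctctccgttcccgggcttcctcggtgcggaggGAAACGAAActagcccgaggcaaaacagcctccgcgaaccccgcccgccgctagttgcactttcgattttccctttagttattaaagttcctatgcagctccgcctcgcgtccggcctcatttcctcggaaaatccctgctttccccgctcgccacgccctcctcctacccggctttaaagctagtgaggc
IFIH1, chr2:162318685-162318839, minus strand: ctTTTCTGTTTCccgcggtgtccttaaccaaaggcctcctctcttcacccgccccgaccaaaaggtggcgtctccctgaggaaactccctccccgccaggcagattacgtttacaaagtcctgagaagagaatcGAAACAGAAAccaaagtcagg
MAVS, chr20:3846584-3846798, plus strand: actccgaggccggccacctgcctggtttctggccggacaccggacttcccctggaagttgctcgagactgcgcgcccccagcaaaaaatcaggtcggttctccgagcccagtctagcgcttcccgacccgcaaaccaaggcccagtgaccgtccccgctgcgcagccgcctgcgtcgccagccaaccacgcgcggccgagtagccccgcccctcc

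The core of the interferon-stimulated response element was searched as GAAANNGAAA on both strands. IFIH1 held 3 matches among its 300 bases, and 1255 of 35116 promoters of that length (3.57%) held at least 1. The match nearest to the start, GAAACAGAAA, lies at positions -21 to -12 counted from the start of transcription. The other two overlap each other on the opposite strand, from -153 to -144 and from -159 to -150, and the farther one lies partly outside the stretch printed here. DDX58 and MAVS held no match to these letters. In DDX58, copies of GAAA separated by 1 base instead of 2 (GAAANGAAA, searched on both strands after its sequence was read) stand at -203 to -195, and 3.12% of all promoters held that spacing. The core of the gamma-activated sequence, TTCNNNGAA, which reads the same on both strands, was in none of the 3 promoters and in 7.66% of all promoters. The G and C content of the 300 bases was 60.3% for DDX58, 50.7% for IFIH1 and 71.7% for MAVS, beside a mean of 57.5% over all promoters. These are matches of letters in a window, and binding was not measured.

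**Figure D1:**
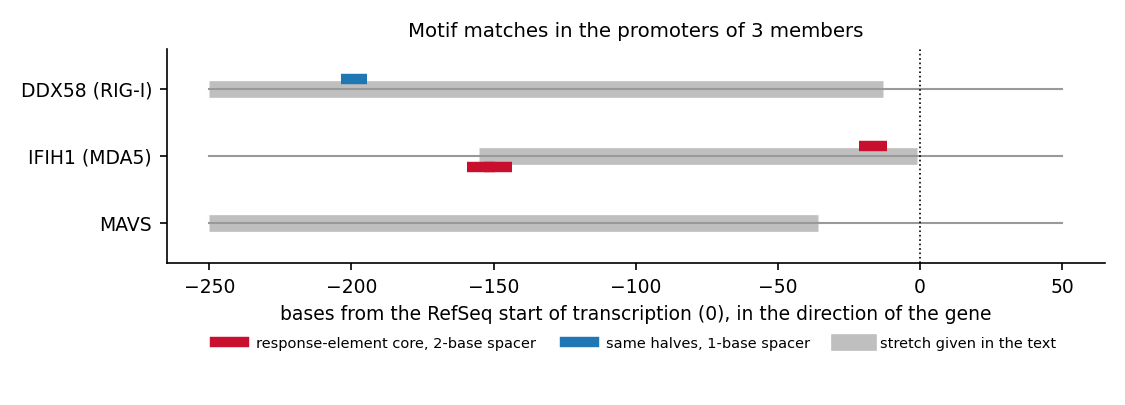
Map of the 300 bases around the RefSeq start of transcription of DDX58, IFIH1 and MAVS, with distance from the start in bases on the x axis; bars above a line are matches on the strand of the gene and bars below it matches on the other strand. IFIH1 holds 3 matches to the response-element core (red), 1 of them at -21 to -12 and the other two overlapping, DDX58 holds 1 match with the 1-base spacer (blue), and MAVS holds neither.

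The libraries held between 26650854 and 37321956 reads on genes. The RNA of TFAM itself overlapped between the groups, at 2555, 1878 and 2663 reads for Ctrl replicates 1, 2 and 3 against 2291, 2808 and 2492 reads for TFAM-OE replicates 1, 2 and 3. Its log2 fold change was 0.08 ± 0.10 (standard error), and edgeR's quasi-likelihood test gave an adjusted p of 0.623. The counts of the TFAM gene thus do not show the overexpression that the labels name, and the second group is called the libraries labelled TFAM-OE. The study reported the overexpression from an immunoblot for the FLAG tag. That antibody detects the tagged protein and not untagged TFAM, and protein was not analysed here. The 5 epithelial markers (EPCAM, KRT8, KRT18, KRT19 and CDH1) summed to 3046 to 3355 CPM (read counts relative to TMM-scaled library size) among control libraries and to 2889 to 3539 CPM among the others, and none of the 5 passed the test. Nearly all of this sum was keratin RNA, and EPCAM had between 9 and 32 reads. The leukocyte markers summed to at most 5.08 CPM, the fibroblast markers to at most 5.19 CPM and the endothelial markers to at most 0.266 CPM in any library. PTPRC, the pan-leukocyte marker, had 1 read in all 6 libraries together. Most of the leukocyte sum was ITGAM, with 82 to 147 reads per library. COL1A1, with 83 to 173 reads, made up most of the fibroblast sum.

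All 3 receptor genes fell in the libraries labelled TFAM-OE, to levels 3.06-fold to 4.60-fold lower, while MAVS had a level 1.32-fold higher that did not pass the test. Each of the receptors passed an adjusted p of 0.05 and a fold change of at least 2, which 2.07% of the genes tested did in that direction. The adjusted p alone was passed by 4.81% of genes lower and 3.48% higher. Every library labelled TFAM-OE lay below every control library in each receptor gene, a separation that 15.8% of the genes tested showed in that direction. In these bulk libraries, fewer cells with a transcript and less of it per cell cannot be told apart.

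DDX58 (ENSG00000107201.9), the gene of RIG-I, lies on the minus strand of chromosome 9 (GRCh38), between positions 32455302 and 32526208. Ctrl replicates 1, 2 and 3 held 4370, 3686 and 5354 of its reads, and TFAM-OE replicates 1, 2 and 3 held 1211, 1193 and 902. The lowest control count was thus over 3 times the highest count of the other group. After TMM scaling, the level was 138 ± 7.99 CPM among controls and 33.6 ± 4.02 CPM among the others (SD, n = 3 each). The log2 fold change was -2.04 (standard error 0.11, adjusted p = 1.8e-05 by edgeR), a level 4.10-fold lower with a 95% interval from 3.44 to 4.89. Of all genes tested, DDX58 had the 85th lowest log2 fold change.

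IFIH1 (ENSG00000115267.5), the gene of MDA5, lies on the minus strand of chromosome 2 from 162267074 to 162318684. Control libraries held 1557, 1258 and 1643 of its reads, and those labelled TFAM-OE held 319, 368 and 297. Scaled levels varied little within either group: they lay between 44.8 and 47.0 CPM in one and between 9.89 and 10.1 CPM in the other (n = 3 each). For its 319 reads in TFAM-OE replicate 1, the exact 95% Poisson interval runs from 285 to 356 reads. Counting error alone is thus wider than the spread of that group. Its log2 fold change of -2.20 (edgeR, standard error 0.10, adjusted p = 1.8e-05) was the 66th lowest of all genes tested and the lowest of the 4 members. This is a level 4.60-fold lower, with a 95% interval from 3.92 to 5.40.

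DHX58 (ENSG00000108771.12), the gene of LGP2, lies on the minus strand of chromosome 17 from 42101404 to 42112714 and was the least abundant member. Only 94, 92 and 114 reads fell on it in the control, and 27, 44 and 29 under the TFAM-OE label. For the lowest count, 27 reads, the exact 95% Poisson interval runs from 17.8 to 39.3 reads, and for the lowest control count, 92 reads, from 74.2 to 113 reads. These intervals cover counting error only, since reads were counted without molecular identifiers. The level went from 3.11 ± 0.319 CPM to 1.01 ± 0.185 CPM (SD, n = 3 each), and the groups did not overlap. The log2 fold change was -1.61 (standard error 0.21, adjusted p = 0.0022 by edgeR), a level 3.06-fold lower with a 95% interval from 2.22 to 4.23. Measured as log2(FPKM + 1), where the added 1 shrinks changes of low genes, it was -0.61 (adjusted p = 0.0025 by limma-trend).

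MAVS (ENSG00000088888.17), the gene of the adaptor, lies on the plus strand of chromosome 20 from 3846799 to 3876123. The controls held 4081, 4032 and 5142 of its reads, and the libraries labelled TFAM-OE held 5123, 6790 and 5895. Scaled levels were 137 ± 14.7 CPM and 181 ± 18.5 CPM respectively (SD, n = 3 each). TFAM-OE replicate 1, the lowest of its group at 161 CPM, was above Ctrl replicate 2, the highest control at 151 CPM, and 15.8% of the genes tested separated in that direction. The log2 fold change was 0.40 (standard error 0.11) with an adjusted p of 0.061 by edgeR, and the 95% interval of the fold change runs from 1.10 to 1.58. MAVS therefore stayed just outside the threshold, and 5 of 17 alternatives took it past, with adjusted p-values between 0.012 and 0.226 over all 17. Without TFAM-OE replicate 1 its adjusted p was 0.016 (log2 fold change 0.48), and without TFAM-OE replicate 3 it was 0.044 (log2 fold change 0.34), both by edgeR.

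**Figure D2:**
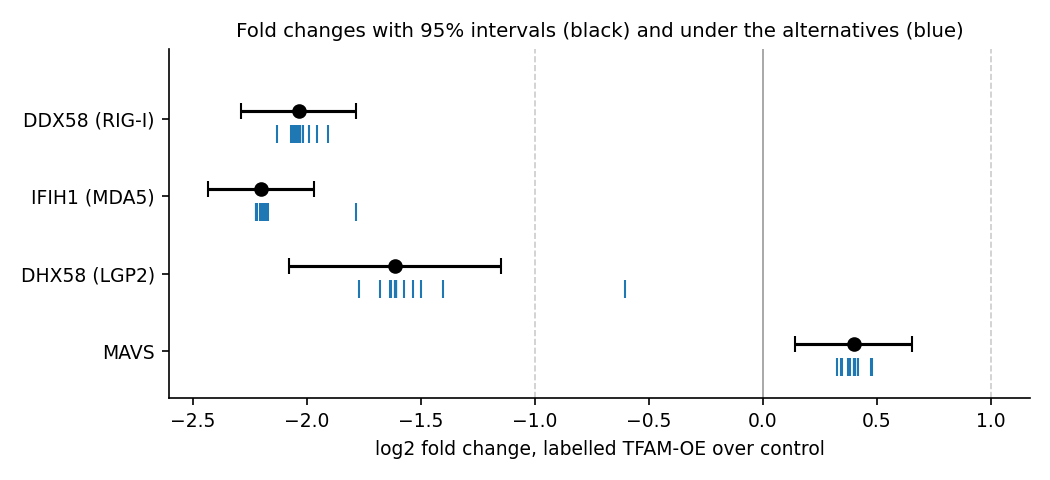
Log2 fold changes of the 4 genes, libraries labelled TFAM-OE over control (x axis), with 95% intervals from edgeR as black bars and the values under the alternative settings as blue ticks; dashed lines mark a 2-fold change. DDX58 and IFIH1 stay below -1 under every alternative, DHX58 does except for the tick at -0.61 on log2(FPKM + 1), and MAVS lies between 0.32 and 0.48.

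Levels of different genes were compared as the deposited FPKM, which divides by gene length. DDX58 was the highest receptor, with 26.29, 26.83 and 28.0 FPKM in Ctrl replicates 1, 2 and 3 and 6.99, 6.28 and 6.14 FPKM in TFAM-OE replicates 1, 2 and 3. IFIH1 ranged from 8.88 to 9.68 FPKM among controls and from 1.90 to 2.09 FPKM among the others. DHX58 had between 0.94 and 1.11 FPKM and between 0.26 and 0.38 FPKM, so its highest value in any library was below the lowest of IFIH1. For MAVS, controls had 9.08, 10.85 and 9.94 FPKM, and the others 10.94, 13.21 and 14.83 FPKM.

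In the control, the order of mean FPKM was DDX58, MAVS, IFIH1 and DHX58. MAVS at 9.96 ± 0.885 FPKM and IFIH1 at 9.34 ± 0.413 FPKM (SD, n = 3 each) overlapped, and their order is not settled by these values. In the libraries labelled TFAM-OE the order was MAVS, DDX58, IFIH1 and DHX58, and no neighbours overlapped: the lowest MAVS value, 10.94 FPKM, was above the highest DDX58 value, 6.99 FPKM. The values rest on the length that the authors used. Dividing by the MANE Select transcript of GENCODE version 44 instead (11731 bases for MAVS, 4628 for DDX58, 3581 for IFIH1 and 2591 for DHX58), the means in the control were 29.8 CPM per kilobase for DDX58, 12.9 for IFIH1, 11.7 for MAVS and 1.20 for DHX58. On that scale IFIH1 and MAVS changed places among controls. They overlapped there too, at 12.5 to 13.1 for IFIH1 against 10.4 to 12.8 for MAVS, so their order is again not settled. The order among the others was unchanged, at 15.4, 7.26, 2.79 and 0.389 for MAVS, DDX58, IFIH1 and DHX58.

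**Figure D3:**
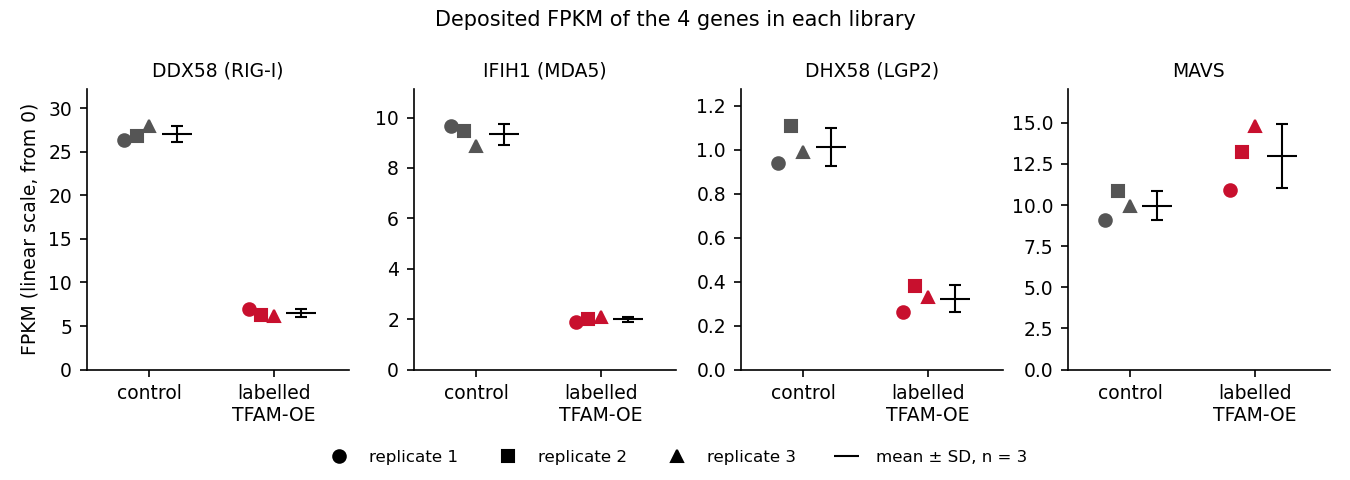
FPKM of DDX58, IFIH1, DHX58 and MAVS in each library (y axes from 0, each gene on its own scale), with symbols for replicates 1 to 3 and the mean ± SD of each group beside them. The receptor genes lie lower under the TFAM-OE label with no overlap, DDX58 at 6.14 to 6.99 FPKM against 26.29 to 28.0 FPKM, while MAVS lies at 10.94 to 14.83 FPKM against 9.08 to 10.85 FPKM.

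Summed over the 3 receptors, the level was between 36.91 and 37.87 FPKM in the control libraries and between 8.56 and 9.15 FPKM in those labelled TFAM-OE. For each FPKM of MAVS there were 3.45 to 4.06 FPKM of receptor among controls, against 0.577 to 0.836 FPKM among the others. The makeup of the sum moved less than its size. Of receptor FPKM, DDX58 made up 72.3 ± 1.44% among controls and 73.5 ± 2.50% among the others (SD, n = 3 each). The shares were 25.0 ± 1.41% and 22.8 ± 1.85% for IFIH1, and 2.71 ± 0.226% and 3.69 ± 0.786% for DHX58. These are shares of RNA that rest on the authors' gene lengths, and they would differ with the MANE Select lengths given above.

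Whether the members changed by different amounts was tested on the ratio of reads between each of the 6 pairs within a library, which does not depend on how libraries are scaled. With 3 libraries against 3, the smallest two-sided p that the exact permutation test can give is 0.1, and adjustment over the 6 pairs cannot lower it, so no pair could pass 0.05. Reads of DDX58 per read of MAVS were 1.07, 0.914 and 1.04 in Ctrl replicates 1, 2 and 3 and 0.236, 0.176 and 0.153 in TFAM-OE replicates 1, 2 and 3. RIG-I and MAVS reads were thus about equal in number in the control, and MAVS reads were more numerous in every library labelled TFAM-OE. The log2 ratio to MAVS changed by -2.44 for DDX58, -2.60 for IFIH1 and -2.04 for DHX58. The groups did not overlap in any of these (exact permutation test, p = 0.1 each, adjusted p = 0.15). Scaled levels of each receptor had already separated downwards and those of MAVS upwards, and scaling cancels in a ratio. This lack of overlap was therefore fixed by the members' own values and is no separate evidence.

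Between the receptors the ratios moved less. The log2 ratio of DDX58 to IFIH1 was 1.58 ± 0.11 among controls and 1.74 ± 0.17 among the others (SD, n = 3 each), a change of 0.16 with overlap (exact permutation p = 0.3, adjusted p = 0.3). That of DDX58 to DHX58 was 5.47 ± 0.13 and 5.07 ± 0.38, a change of -0.40, also with overlap (exact permutation p = 0.2, adjusted p = 0.24). That of IFIH1 to DHX58 was 3.89 ± 0.14 and 3.33 ± 0.25, a change of -0.56 without overlap (exact permutation p = 0.1, adjusted p = 0.15). MDA5 transcripts therefore had the lower fold change of that pair in these libraries, and the 95% intervals of their fold changes, given above, overlap.

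**Figure D4:**
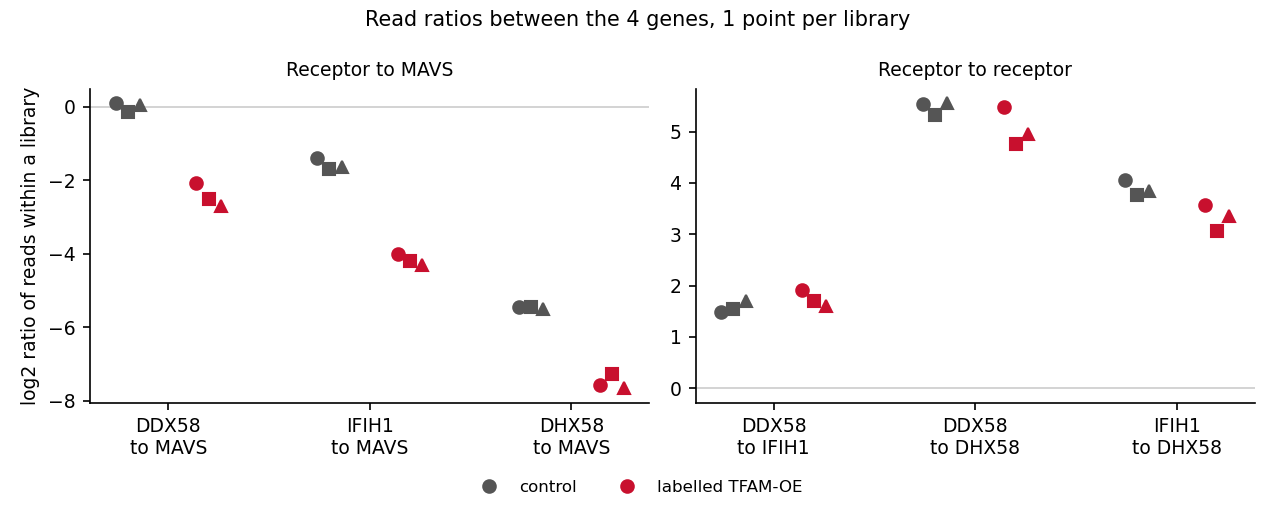
Log2 ratios of reads between members within each library (y axes, log2 scale; circles, squares and triangles are replicates 1, 2 and 3). The ratios of the receptors to MAVS separate the control (grey) from the libraries labelled TFAM-OE (red), by 2.04 to 2.60, while the ratios among DDX58, IFIH1 and DHX58 differ by at most 0.56.

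Annotated genes within 2000 bases of a member were looked up after the members' values were known. IFIH1 and GCA, which encodes the calcium-binding protein grancalcin, are transcribed away from each other from starts 156 bases apart. The counts of GCA overlapped, at 214, 159 and 223 reads for controls against 150, 219 and 162 for the others (log2 fold change -0.19, adjusted p = 0.455 by edgeR). KAT2A, a histone acetyltransferase gene on the same strand that ends 396 bases before DHX58 begins, overlapped too (log2 fold change -0.07, adjusted p = 0.767). ACO1, which encodes the cytosolic aconitase and iron regulatory protein, ends 532 bases beyond the end of DDX58 and rose from 86.3 ± 6.06 CPM to 148 ± 17.1 CPM (SD, n = 3 each; log2 fold change 0.78, adjusted p = 0.0035 by edgeR). A longer gene annotated by GENCODE overlaps DDX58 on the same strand and has no row in the count table, and MAVS has no neighbour within that distance. The fall of the receptor genes was thus not seen in the neighbours that had a row.

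The genes nearest to each member in profile were found as the root mean square difference in log2 CPM over the 6 libraries, after subtracting the mean of the control, among 13190 other genes with a mean of at least 50 reads. For DDX58 these were HLA-F, a non-classical MHC class I gene (0.09), GBP1, a guanylate-binding protein gene (0.12), and IFIH1 (0.16). For IFIH1 they were GBP1 (0.09), SAMD9L, an antiviral factor gene (0.12), and RASGRP3, which encodes an exchange factor for Ras proteins (0.15), with DDX58 in place 5. For DHX58 they were HERC5, the gene of the main ligase for ISG15 (0.14), TLR3 (0.15) and DTX3L, a ubiquitin ligase gene (0.17), with DDX58 in place 48 and IFIH1 in place 88. The nearest genes of MAVS were CHAF1A, a chromatin assembly factor gene, PLXND1, a semaphorin receptor gene, and SUV420H2, a histone methyltransferase gene, at 0.03, 0.05 and 0.05, with log2 fold changes between 0.41 and 0.42. Distances to a gene that changed little are smaller than to one that changed strongly, so they are comparable only within a member. Because the mean of the control was subtracted, genes near a member have fold changes like its own by construction.

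The genes around the receptors were taken as 6 lists of 101 genes in all, of which 95 were tested. Past an adjusted p of 0.05 by edgeR were 30 genes lower and 2 higher, and the median log2 fold change was -0.14, beside -0.01 over all genes tested. Over all genes tested, 4.81% were lower and 3.48% higher past that threshold, and these shares stand beside each list that follows. Leaving out single libraries gave between 23 and 36 genes lower and between 0 and 10 higher. The count of higher genes was 0 without Ctrl replicate 1, without Ctrl replicate 2 or without TFAM-OE replicate 2, and 10 without TFAM-OE replicate 3.

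**Figure D5:**
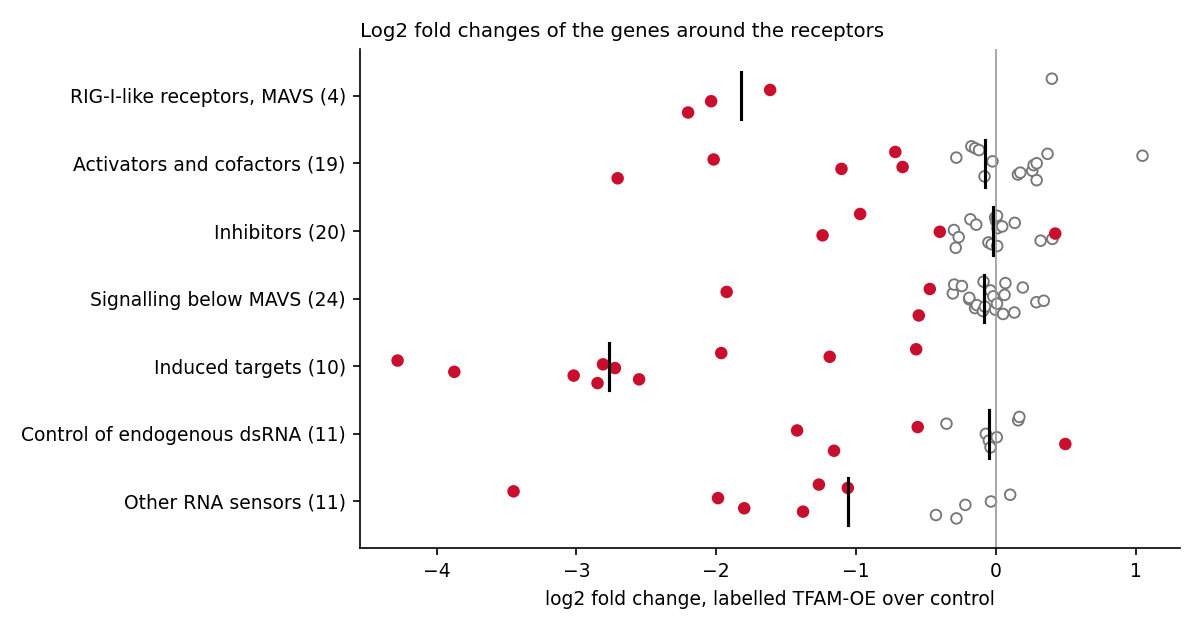
Log2 fold changes (x axis, libraries labelled TFAM-OE over control) of the tested genes of each list, with the number tested in parentheses; red points passed an adjusted p of 0.05, open points did not, and black bars are medians. The medians of the activators, inhibitors, signalling genes and genes listed as controlling endogenous dsRNA lie between -0.08 and -0.02. That of the other RNA sensors lies at -1.06 and that of the induced targets at -2.77.

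Among 19 activators and cofactors of the receptors, 5 were lower, 0 higher (all genes tested: 4.81% and 3.48%) and 14 did not pass. The median log2 fold change was -0.08. TRIM25, a ubiquitin ligase known for modifying RIG-I, fell from 353 ± 22.0 CPM to 222 ± 6.55 CPM (SD, n = 3 each; log2 fold change -0.67, adjusted p = 0.0031 by edgeR). RNF135, or Riplet, another ligase known for RIG-I, had 39.2 ± 1.46 CPM and 43.6 ± 2.72 CPM (log2 fold change 0.16, adjusted p = 0.354 by edgeR). The other four that fell were IFIT3, which bridges MAVS and TBK1, the helicase gene DDX60, TRIM14, which binds MAVS, and ZC3HAV1, which encodes the zinc finger antiviral protein, at -2.71, -2.02, -1.10 and -0.72. TRIM31, a ligase that acts on MAVS, had the highest log2 fold change of the list, 1.05, and did not pass (adjusted p = 0.052 by edgeR).

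Of 20 genes listed as inhibitors of the receptors or MAVS, 3 were lower and 1 was higher (all genes tested: 4.81% and 3.48%). The median was -0.02. NLRC5 fell by 1.24 on the log2 scale and TNFAIP3, the gene of the deubiquitinase A20, fell by 0.97. SMURF2, a ubiquitin ligase gene, fell by 0.40 (adjusted p = 0.043) and RNF5, a ligase that marks MAVS and STING for degradation, rose by 0.42 (adjusted p = 0.045), both by edgeR and both close to the threshold.

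Of 24 tested genes of signalling below MAVS, 3 were lower, 0 higher (all genes tested: 4.81% and 3.48%) and 21 did not pass. IRF7, the interferon-inducible factor, fell from 140 ± 18.5 CPM to 36.9 ± 13.3 CPM (SD, n = 3 each; log2 fold change -1.93, adjusted p = 0.0013 by edgeR). Its relative IRF3, which is made constitutively, had 95.1 ± 8.69 CPM and 116 ± 12.7 CPM (log2 fold change 0.29, adjusted p = 0.143 by edgeR). TBK1, the kinase, stood at -0.47 on the log2 scale (adjusted p = 0.047) and AZI2, a TBK1 adaptor, one of -0.55 (adjusted p = 0.017), whereas IKBKE, the gene of IKKε, had 0.34 (adjusted p = 0.074), all by edgeR. TMEM173, the gene of STING, had between 4 and 8 reads in any library and was not tested.

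All 10 tested genes among 11 induced targets were lower past an adjusted p of 0.05 by edgeR (all genes tested: 4.81%). The median was -2.77. IFNB1, the gene of interferon-β, had the lowest log2 fold change at -4.28, with 174, 121 and 132 reads in the controls and 12, 5 and 5 in the others. It was followed by the type III interferon gene IFNL1 at -3.87, CCL5 at -3.02, CXCL11 at -2.85 and IFIT2 at -2.81. Several of these targets are also induced by interferon itself. TNF had between 3 and 6 reads in any library and was not tested.

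Of 11 genes listed as controlling endogenous double-stranded RNA, 3 were lower and 1 was higher (all genes tested: 4.81% and 3.48%). SAMHD1, counted in this list although it is a nucleotide triphosphohydrolase, fell by 1.42 on the log2 scale. PNPT1, the exoribonuclease of mitochondria, fell from 178 ± 13.2 CPM to 79.7 ± 1.77 CPM (SD, n = 3 each; log2 fold change -1.16, adjusted p = 1.1e-04 by edgeR). SUPV3L1, the helicase that works with it in the degradation of mitochondrial RNA, had 33.7 ± 0.655 CPM and 32.1 ± 0.931 CPM (log2 fold change -0.07, adjusted p = 0.680 by edgeR). ADAR, which edits double-stranded RNA so that MDA5 does not detect it, fell by 0.56 (adjusted p = 0.028), and SKIV2L, the helicase of the cytosolic RNA exosome, rose by 0.50 (adjusted p = 0.029), both by edgeR.

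Of 11 tested genes among 15 for other RNA sensors, 6 were lower, 0 higher (all genes tested: 4.81% and 3.48%) and 5 did not pass. The median was -1.06. The lower genes included OAS2, OAS1 and OAS3, synthetases that activate RNase L, at -3.45, -1.99 and -1.38. Also lower were the endosomal receptor gene TLR3 at -1.80, IFIT5 at -1.27 and EIF2AK2, the gene of the kinase PKR, at -1.06. The others, DDX1, DDX3X, DHX33, DHX36 and DDX21, are helicases with other roles and had log2 fold changes between -0.43 and 0.10. The log2 fold changes of DDX58, IFIH1 and DHX58 lay within the range of the 6 lower genes.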

How the data were processed

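Polyadenylated RNA of 6 A549 cultures, 3 per group, was sequenced from stranded libraries. The authors trimmed the reads with the FASTX-Toolkit, aligned them to GRCh38 with TopHat2 and kept uniquely mapped reads. They deposited raw counts of reads per gene and FPKM with 2 decimals. None of the sources used here gives the counting program, its annotation or its strand setting, and overlapping genes could therefore share reads. Unused value columns numbered 0. The study describes its replicates as biological.

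Genes kept by filterByExpr were tested in R (4.3.3) by the two-sided quasi-likelihood test of edgeR (4.0.16) with TMM factors and no block, and p-values were adjusted by Benjamini and Hochberg's method over all 16555 genes. Testing every gene with a read was kept as an alternative. The fits were tested on simulated data. Standard errors were derived from the test, as the absolute log2 fold change divided by the square root of its F statistic. The 95% intervals multiply them by a quantile of the t distribution. CPM values are TMM-scaled. Ratios were tested in Python (3.11.15) by exact permutation. Coordinates are from GENCODE (44), which names DDX58 RIGI. As alternatives served the exact test of edgeR, DESeq2 (1.42.0), limma (3.58.1) with voom or with trend on log2(FPKM + 0.1) and log2(FPKM + 1), other scalings and filters, single libraries left out and a replicate block.

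The members, lists and motifs were chosen with earlier results of these data known, and list genes are described by counts. Named genes are the members, at most 5 genes per list and direction with the largest change past the threshold, 14 genes fixed by name, and the 3 nearest in profile to each member. Genes near the members, the 1-base spacing and the genes named for failing a filter or test in a list were chosen after their values were seen.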

Additional observations from a re-analysis of the deposited data

How the results depend on the processing

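DDX58 and IFIH1 kept their direction and side of the threshold under all 17 alternatives (log2 fold changes from -2.13 to -1.91 and from -2.22 to -1.79), as did DHX58 under 16 (from -1.77 to -0.61), which had no value where FPKM had to reach 1 in 3 libraries. MAVS passed with every gene with a read (0.404529), DESeq2 (0.406306) and the edgeR exact test (0.399427), and ranged from 0.324059 to 0.480952 without single libraries. The 6 ratios between members kept their sign under all 9 alternatives that could be run on them. Genes lower past the adjusted p, 796, became 1485 with every gene with a read, 1236 with the exact test and 240 to 1786 without single libraries. Genes higher, 576, became 1034 and 980 in these settings, 932 with DESeq2 and 66 to 1428 without single libraries. Genes also changed at least 2-fold, 342 lower and 74 higher, became 528 and 129 with every gene with a read, 196 and 33 with FPKM of at least 1, and 108 and 11 on log2(FPKM + 1), and 44 were higher on log2(FPKM + 0.1). Without single libraries they were 183 to 448 lower and 21 to 113 higher. The 2 pathway genes higher became 5 with every gene with a read and on log2(FPKM + 1), 6 with DESeq2, 4 with the exact test and on log2(FPKM + 0.1), and 0 to 10 without single libraries. Among the settings that leave out single libraries, the lowest counts over all genes came without Ctrl replicate 1 or 2 and the highest without TFAM-OE replicate 3, and without TFAM-OE replicate 2 these counts fell by over 1.5 times too (262 lower and 89 higher past the adjusted p). Fewer genes tested or fewer samples are part of how some of these settings are built; otherwise the cause was not tested.

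Libraries with the same replicate number did not deviate together (correlations of -0.20, -0.0034 and -0.25), so the numbers were not taken as pairs. With the replicate block, 285 genes were lower and 74 higher past the adjusted p, 217 and 38 with at least 2-fold, and 23 and 0 among the pathway genes. The members' calls were the same with the block as without it. DHX58, with 27 to 114 reads, is the member that depth limits most.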

Other observations

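Of the 6 tested genes of cytosolic DNA sensing, 2 were lower past an adjusted p of 0.05 by edgeR and 0 were higher, with a median log2 fold change of -0.16, beside 4.81% lower and 3.48% higher over all genes tested. These were IFI16, a DNA-binding sensor, at -2.23 and TREX1, the exonuclease that degrades cytosolic DNA, at -0.73. MB21D1, the gene of the DNA sensor cGAS, had 24.7 ± 0.581 CPM in the control and 20.9 ± 2.41 CPM in the libraries labelled TFAM-OE (SD, n = 3 each; log2 fold change -0.24, adjusted p = 0.239 by edgeR).

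Of 50 other tested protein-coding genes named DDX or DHX, 7 were lower and 0 higher past the adjusted p, with a median of -0.06, beside the same 4.81% and 3.48% of all genes tested. DDX60L and DDX60, relatives in sequence of each other, had log2 fold changes of -2.15 and -2.02, and the other five, led by DHX35, DDX20 and DHX34, lay between -0.48 and -0.38. The fall of at least 2-fold was thus found in 2 of 50 of them, beside 2.07% of all genes tested.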
